A study of Mus musculus with 12 samples.

Results

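Bone matrix holds, beside its collagen, a group of secreted proteins that cells use to tune their contact with the matrix. The transcripts of 10 of them were followed here: *Fn1*, *Tgfbi*, *Postn*, *Tnc*, *Tnn*, *Thbs1*, *Thbs2*, *Thbs3*, *Smoc1* and *Smoc2*. They were taken by gene name from the deposited count table, which lists 32288 genes and transgenes. Each of the 10 names occurred once, and all 10 passed the filter on low counts in every comparison.

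The libraries were bulk RNA-seq of mGFP+ cells sorted from the metaphysis of mouse femurs and tibias. Every mouse carried *Osx-CreERT2*, a tamoxifen-dependent Cre driven by the osteoblast gene *Osx* (*Sp7*), and the *mTmG* reporter, which turns from red to green where Cre has acted. Every group received tamoxifen. Juvenile *Osx*+ osteoblasts came from 3-week-old mice (4 libraries) and adult *Osx*+ osteoblasts from 8-week-old mice (4 libraries), with bones of 2 male mice pooled for each library. *c-Myc*-induced osteoblasts (2 libraries) came from mice that also carried *LSL-tTA* and *Col1a1::TetO-c-Myc*, in which Cre switches on a transgenic *c-Myc*. The *c-Myc* + *R172H* osteoblasts (2 libraries) had these alleles together with *Trp53-LSL-R172H*, a mutant p53. The titles give both induced groups as 3 weeks old, whereas the dissection protocol calls these mice 5-week-old. They were of both sexes, were collected 7 days after tamoxifen rather than 2, and had the shaft cut 5 mm rather than 2 mm from the growth plate. Time after tamoxifen, cut and pooling therefore cannot be told apart from the transgenes in a comparison with juvenile osteoblasts. The same holds for age if the protocol is right, and in part for sex, since the juvenile mice were all male. The labels do not say which animals the libraries of a group came from, so the tests measure the spread between these libraries.

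Matricellular proteins do not bear load as collagen does. They bind collagen, proteases and growth factors on one side and integrins or syndecans on the other, and they change how a cell spreads, moves and responds to TGF-β or BMP. In bone, periostin and the tenascins are best known from the periosteum, from repair and from loaded sites, and thrombospondins and SMOCs act on mineralisation, vessels and growth factor activity.

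*Myc* checked the induction: it stood at 45.9 ± 5.2 CPM (library-size scaled counts, with TMM factors taken over all 12 libraries; SD, n = 4) in juvenile osteoblasts and 47.8 ± 2.7 (n = 4) in adult osteoblasts, against 641 ± 24 (n = 2) with *c-Myc* and 693 ± 77 (n = 2) with *c-Myc* + *R172H*. Total counts ranged from 9066154 to 15684412 per library. *Col1a1*, *Col1a2* and the noncoding *Gm26917* together took 35.2% to 65.3% of them, so the choice of scaling matters for every level given here. All 10 osteoblast markers examined were above 3 counts in all 12 libraries. Their sum was 567387 to 837492 CPM in juvenile, 342024 to 617665 CPM in adult, 99299 to 131823 CPM with *c-Myc* and 56039 to 57948 CPM with *c-Myc* + *R172H*. *Col1a1* and *Col1a2* made up most of this sum in every group, with means of 485355 and 223840 CPM in juvenile osteoblasts. The sum therefore says little of the other markers. *Sp7* and *Runx2* averaged 237 and 227 CPM in juvenile osteoblasts and 137 and 141 CPM with *c-Myc*. The 15 chondrocyte markers were above 3 counts in the juvenile and adult libraries, with a summed level of 18618 to 36234 CPM in juvenile and 43810 to 138339 CPM in adult osteoblasts, against 1868 to 2115 CPM with *c-Myc* and 873 to 1042 CPM with *c-Myc* + *R172H*. *Col2a1* and *Col11a2* made up most of this sum in every group, with means of 15595 and 9092 CPM in juvenile osteoblasts. In the induced groups the larger part was *Col11a2*, at 1542 CPM on average with *c-Myc* and 791 CPM with *c-Myc* + *R172H*. Marrow stromal markers summed to 399 to 490 CPM in juvenile, 489 to 756 CPM in adult, 202 to 282 CPM with *c-Myc* and 191 to 207 CPM with *c-Myc* + *R172H*. Periosteal, fibroblast and tendon markers summed to 466 to 515, 628 to 1869, 122 to 128 and 129 to 136 CPM in the same order. *Fmod* and *Ctsk* made up most of that sum, with means of 320 and 134 CPM in juvenile osteoblasts. *Clec3b*, *Pi16*, *Dpt*, *Ly6a*, *Cd34* and *Tnmd* of the same list averaged at most 2.43 CPM in any group. All 4 of these sums were thus lower in every induced library than in every control library. Markers of endothelium, blood, megakaryocytes and muscle were at or near 0, with sums of at most 22.7 CPM. *Xist*, expressed in females, was at 234 CPM in *c-Myc* replicate 2 and 212 CPM in *c-Myc* + *R172H* replicate 2 and at no more than 1.24 CPM in the other 10 libraries. Sorted cells were measured in bulk, so fewer cells of a type and less RNA per cell cannot be told apart.

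Levels of different genes were compared per kb of exon sequence. In juvenile osteoblasts *Fn1* (336.1 ± 26.5 CPM per kb; SD, n = 4) and *Tnc* (260.8 ± 60.7) stood above all others, and their ranges overlapped. *Thbs1* came next at 82.7 ± 11.2, below *Tnc* and above the rest without overlap. *Thbs2*, *Tnn*, *Postn*, *Smoc2*, *Tgfbi* and *Thbs3* lay between 21.6 and 10.4 CPM per kb on average, each overlapping its neighbour in the order, and *Smoc1* was lowest at 1.70 ± 0.45. Adult osteoblasts had the same genes at the top and at the bottom, but by their means *Tgfbi* (30.2 ± 13.2) and *Thbs3* (28.3 ± 14.6) moved up to follow *Thbs1* and *Thbs2* (12.2 ± 2.7) down to the place before *Smoc1*. From *Tgfbi* down to *Thbs2* each adult range overlapped the next, so the order among these genes was not resolved.

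In both induced groups *Tnc* stood alone at the head. It was at 264.7 ± 11.6 CPM per kb with *c-Myc* and 261.1 ± 24.2 with *c-Myc* + *R172H* (SD, n = 2 each), against 63.3 ± 5.8 and 52.6 ± 2.8 for *Fn1*. The ratio of *Fn1* to *Tnc* per kb is free of any scaling between libraries. It was 1.02, 1.37, 1.99 and 1.07 in the juvenile libraries, 2.27, 0.844, 1.47 and 1.42 in the adult libraries, 0.217 and 0.263 with *c-Myc* and 0.196 and 0.207 with *c-Myc* + *R172H*. The 4 induced libraries thus lay below all 8 of the others. As a share of the summed level per kb of the 10 genes, *Tnc* made up 24.9% to 39.8% in juvenile, 24.0% to 43.6% in adult, 71.3% to 75.2% in *c-Myc* and 77.7% to 79.4% in *c-Myc* + *R172H* osteoblasts.

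**Figure D1:**
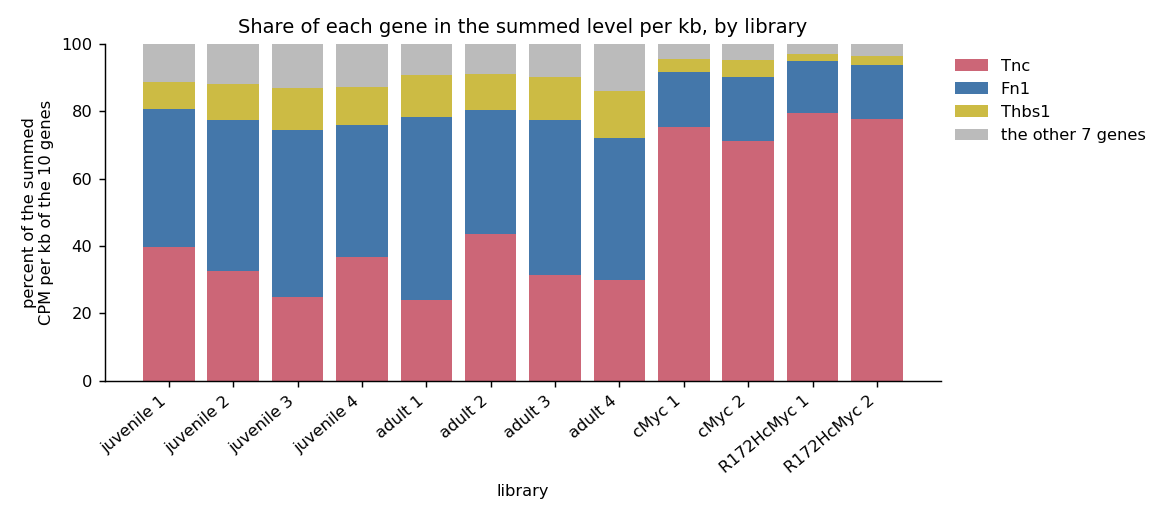
The share of *Tnc*, *Fn1*, *Thbs1* and the other 7 genes (stacked bars, percent) in the summed CPM per kb of the 10 genes, for each of the 12 libraries. *Tnc* takes up to 43.6% in the juvenile and adult libraries and at least 71.3% in the 4 induced libraries.

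With *c-Myc* most of the 10 genes fell, *Thbs3* by the least of those that passed, while by age some were higher and others lower. With *c-Myc*, 8 of the 10 were lower than in juvenile osteoblasts and 0 were higher, where 16% of the 12588 genes tested were called lower and 18.4% higher. The median log2 fold change was -2.37 over the 10 and 0.04 over all genes tested. The markers of the sorted cell type fell beside them: of the 10 osteoblast markers 8 were lower and 0 higher, with a median of -1.99. *Sp7* (-0.81) and *Runx2* (-0.71) fell by less than 1 on the log2 scale and were not called. Of the 4 periosteal, fibroblast and tendon markers tested 3 were lower (median -1.54). Of the 10 marrow stromal markers 2 were lower, 1 was higher, *Lpl* (1.09), and 7 were not called (median -0.93). The part of these shifts in the fall of the 10 genes was not tested. With *c-Myc* + *R172H* against the same juvenile libraries, 9 were lower and 0 higher (17.9% and 19.6% of all genes), with medians of -3.28 and 0.08, beside 8 of the 10 osteoblast markers lower and a median of -2.71. A call in these comparisons needed an adjusted p below 0.05 (edgeR's quasi-likelihood test with Benjamini-Hochberg adjustment over all genes) and a log2 fold change of 1 or more in size. For higher calls the count was also 0 in both, and with *R172H* added to *c-Myc*, at an unadjusted p below 0.05 and with DESeq2. Both comparisons with juvenile osteoblasts use the same 4 libraries and are therefore not independent of each other.

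Between the induced groups, where an adjusted p below 0.05 alone was required, 2 of the 10 were lower with *R172H* (*Thbs1* and *Thbs2*) and 0 higher, where 0.461% of all genes were called lower and 0.00794% higher, that is 58 genes and 1 gene. The median was -0.64 over the 10 and -0.003 over all genes. Between juvenile and adult osteoblasts, under the same rule, *Thbs2* was higher in the juvenile group and *Thbs1* and *Fn1* were lower, where 1.89% of the 11345 genes tested were called higher and 3.23% lower. The median was -0.60 over the 10 and 0.001 over all genes. Groups did not overlap for 3 of the 10 by age, 8 with *c-Myc*, 7 with *R172H* added and 9 for *c-Myc* + *R172H* against juvenile, beside 12.9%, 64.5%, 45% and 66.7% of all genes tested.

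**Figure D2:**
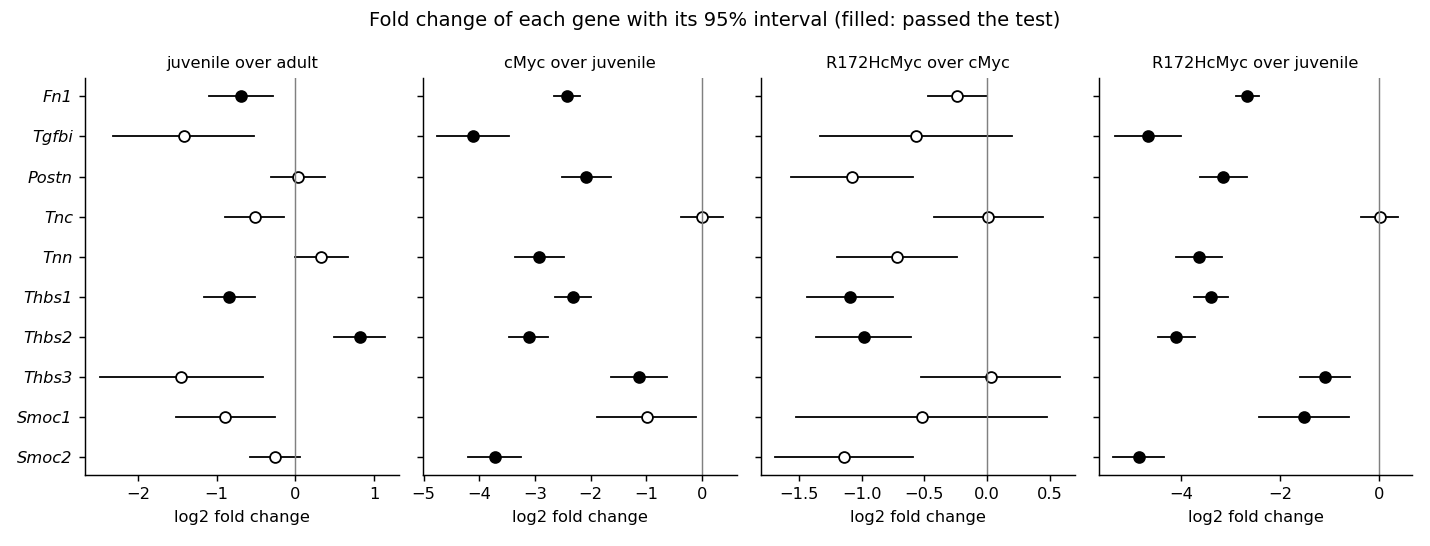
The log2 fold change of each of the 10 genes (circles) with its 95% interval (lines) in the 4 comparisons, each panel with its own horizontal scale. Filled circles passed the test: 3 genes by age, 8 with *c-Myc*, 2 with *R172H* added and 9 with both against juvenile, while *Tnc* lies near 0 in the last 3 panels with this TMM scaling and at 0.82 and 1.04 against juvenile with library totals.

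*Fn1* and *Tgfbi* encode adhesive proteins with integrin-binding sites. Fibronectin is the early matrix on which collagen fibrils are laid down, and *Tgfbi* is a TGF-β-induced protein related to periostin. *Fn1* (ENSMUSG00000026193, chromosome 1, 71585520 to 71653200, minus strand, GRCm38) stood at 3913, 4068, 4225 and 3504 CPM in the juvenile libraries, at 9326, 4633, 6299.8 and 4954 in the adult libraries, at 692 and 788 with *c-Myc* and at 638 and 591 with *c-Myc* + *R172H*. The juvenile libraries were close together and adult replicate 1 stood highest, and every induced library lay below every control library. *Fn1* fell with *c-Myc* by 2.43 on the log2 scale (SE 0.11, edgeR adjusted p = 1.11e-08), and it was 2.67 lower with *c-Myc* + *R172H* (log2 fold change -2.67, SE 0.11, adjusted p = 3.63e-09). Between the induced groups the log2 fold change was -0.24 (SE 0.11, adjusted p = 1). By age it was -0.69 (SE 0.19, adjusted p = 0.0493, edgeR), lower in juvenile than in adult osteoblasts. That call was lost in 6 of the 8 fits that left out a library: each juvenile library in turn (adjusted p from 0.0841 to 0.15), adult replicate 3 (0.0856) and adult replicate 1, without which the log2 fold change was -0.44 (0.123).

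*Tgfbi* (ENSMUSG00000035493, chromosome 13, 56609523 to 56639562, plus strand) had the deepest fall with *c-Myc*. Its levels were 49.7, 37.6, 55.1 and 29.4 CPM in the juvenile libraries, 141, 49.1, 102 and 163 in the adult libraries, 2.28 and 2.78 with *c-Myc* and 1.83 and 1.49 with *c-Myc* + *R172H*. The juvenile libraries thus overlapped adult replicate 2 alone. The log2 fold change was -4.11 with *c-Myc* (SE 0.30, edgeR adjusted p = 2.58e-07), which is 17.3-fold lower, and -4.68 with *c-Myc* + *R172H* (SE 0.31, adjusted p = 9.65e-08). The difference between the induced groups was -0.57 with a 95% interval of -1.33 to 0.20. By age it was -1.42 (SE 0.38, adjusted p = 0.0851) and did not pass the test, although the interval ran from -2.31 to -0.52. Of the 8 fits that left out a library it passed in 1, that without adult replicate 2, the library that overlapped the juvenile range (-1.66, edgeR adjusted p = 0.000271).

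*Postn* (ENSMUSG00000027750, chromosome 3, 54361109 to 54391037, plus strand) encodes periostin, a periosteal protein that binds integrins and supports collagen crosslinking. It was at 130, 121, 88.0 and 164 CPM in juvenile and 99.7, 138, 132 and 120 CPM in adult osteoblasts, which overlapped throughout. It was at 32.0 and 28.6 CPM with *c-Myc* and 14.0 and 14.2 CPM with *c-Myc* + *R172H*, in a stepwise order without overlap. By age the log2 fold change was 0.03, with an interval of -0.31 to 0.37 that leaves room for a difference of that size either way. *Postn* fell with *c-Myc* by 2.08 (SE 0.20, edgeR adjusted p = 3.21e-06) and with *c-Myc* + *R172H* by 3.15 (SE 0.22, adjusted p = 1.41e-07). Between the induced groups the log2 fold change was -1.07 (SE 0.22, interval -1.56 to -0.59), and its adjusted p over all genes of 0.0659 missed the threshold. It passed in 2 of the 8 fits that left out a library, those without juvenile replicate 3 (0.0137) or juvenile replicate 4 (0.0234).

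**Figure D3:**
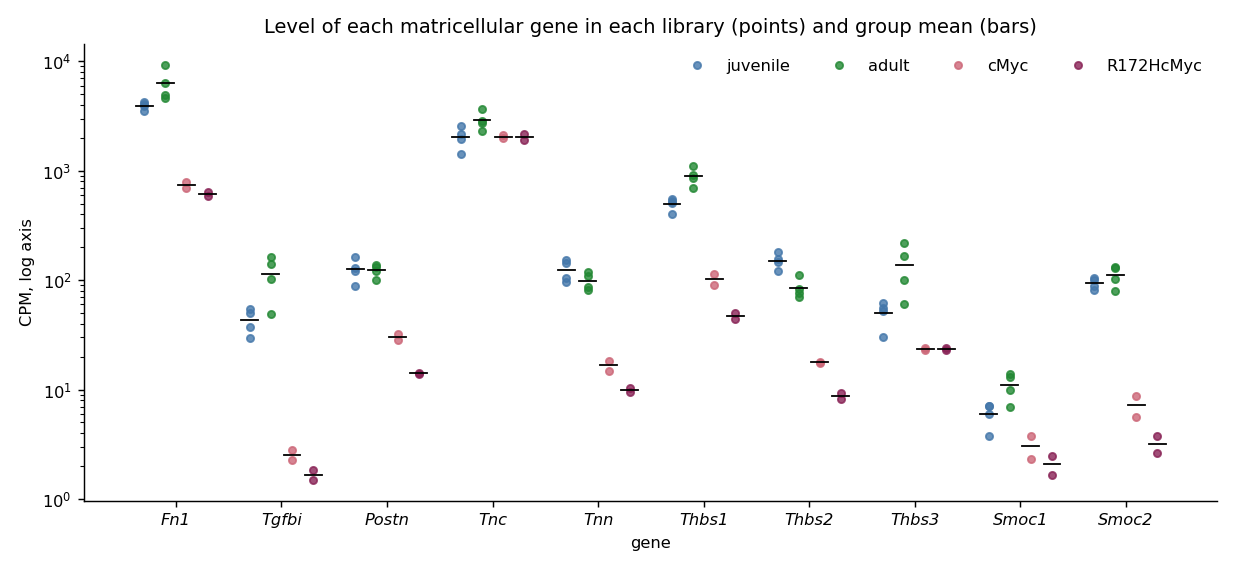
The level of each gene in each library (points, CPM on a log axis) with the group mean (bars), for 4 juvenile, 4 adult, 2 *c-Myc* and 2 *c-Myc* + *R172H* libraries, named as in the labels. With this TMM scaling *Tnc* lies between 1415 and 3651 CPM in all 12 libraries, while *Tgfbi*, *Smoc2* and *Thbs2* drop by a factor of 8.67 or more with *c-Myc*.

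The tenascins, large multimeric glycoproteins that weaken adhesion to fibronectin, went separate ways with *c-Myc*. *Tnc* (ENSMUSG00000028364, chromosome 4, 63959785 to 64047015, minus strand), tenascin-C, stood at 2544, 1969, 1415 and 2179 CPM in juvenile osteoblasts, 2735, 3651, 2843 and 2325 CPM in adult osteoblasts, 2121 and 1993 CPM with *c-Myc* and 2162 and 1897 CPM with *c-Myc* + *R172H*. All 4 induced libraries lay inside the juvenile range. The log2 fold change was -0.003 with *c-Myc* (interval -0.38 to 0.37, edgeR adjusted p = 0.99) and 0.007 with *c-Myc* + *R172H* (interval -0.37 to 0.38, adjusted p = 0.977). The interval covers the spread between libraries but not the scaling: when library totals replaced the TMM factors, which moves the median of all genes to 0.87 and 1.12 in these comparisons, *Tnc* was at 0.82 (adjusted p = 0.00588) and 1.04 (adjusted p = 0.000957), close to that shifted median, and the second passed as higher. By age it was -0.52 (SE 0.18, adjusted p = 0.105), with juvenile replicate 1 inside the adult range.

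*Tnn* (ENSMUSG00000026725, chromosome 1, 160085029 to 160153580, minus strand), tenascin-N or tenascin-W, a tenascin found in periosteum and in stromal tissue of tumours, did fall. It was at 97.3, 104, 145 and 152 CPM in juvenile, 81.9, 86.4, 118 and 108 in adult, 14.8 and 18.4 with *c-Myc* and 9.47 and 10.3 with *c-Myc* + *R172H*. Juvenile and adult libraries overlapped (log2 fold change 0.33, SE 0.16, adjusted p = 0.271), and no induced library reached the control range. *Tnn* fell by 2.92 with *c-Myc* (SE 0.20, edgeR adjusted p = 2e-07), or 7.58-fold, and by 3.64 with *c-Myc* + *R172H* (SE 0.21, adjusted p = 3.79e-08). Between the induced groups it was at -0.72 (interval -1.19 to -0.24, adjusted p = 0.339). The ratio of *Tnc* to *Tnn* per kb within a library was 7.32 to 19.6 in juvenile and 16.1 to 31.6 in adult osteoblasts. It was 107 and 80.9 with *c-Myc* and 171 and 138 with *c-Myc* + *R172H*, so the lowest induced library exceeded the highest control library.

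Because *Tnc* did not fall where *Tnn*, *Postn* and *Thbs2* did, the 250 bases before its start are printed beside those of *Tnn*, *Postn* and *Thbs2*, from RefSeq on GRCm38.p6 and 5′ to 3′ on the strand of the gene. Promoters of 6 of the 10 genes were in the table (also *Thbs3* and *Tgfbi*), and where it listed more than 1 start the one nearest to the GENCODE start was taken. Capitals mark any match on either strand to 6 motifs, none of which overlapped another here. The E-box that MYC and MAX prefer was searched as CACGTG. The site of RUNX factors was searched as TGTGGT and that of AP-1 as TGANTCA. The TATA box was searched as TATAAA, the GC box as GGGCGG and the site of TEAD factors as GGAATG. The lines are chr4:64047016-64047265 (minus) for *Tnc*, chr1:160153576-160153825 (minus) for *Tnn*, chr3:54360857-54361106 (plus) for *Postn* and chr17:14694263-14694512 (minus) for *Thbs2*.
Tnc: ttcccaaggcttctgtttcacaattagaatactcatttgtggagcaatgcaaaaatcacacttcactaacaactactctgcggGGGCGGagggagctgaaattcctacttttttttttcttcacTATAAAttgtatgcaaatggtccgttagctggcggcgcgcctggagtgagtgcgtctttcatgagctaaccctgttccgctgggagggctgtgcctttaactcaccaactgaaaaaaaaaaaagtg
Tnn: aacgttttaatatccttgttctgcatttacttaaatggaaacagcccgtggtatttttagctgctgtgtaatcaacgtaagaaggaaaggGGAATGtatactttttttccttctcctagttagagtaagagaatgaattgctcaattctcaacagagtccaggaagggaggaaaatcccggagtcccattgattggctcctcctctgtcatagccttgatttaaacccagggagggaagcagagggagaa
Postn: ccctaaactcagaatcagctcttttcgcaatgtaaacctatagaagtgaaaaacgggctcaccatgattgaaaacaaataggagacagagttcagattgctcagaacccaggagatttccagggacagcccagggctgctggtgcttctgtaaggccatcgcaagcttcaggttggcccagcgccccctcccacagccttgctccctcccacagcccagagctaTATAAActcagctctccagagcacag
Thbs2: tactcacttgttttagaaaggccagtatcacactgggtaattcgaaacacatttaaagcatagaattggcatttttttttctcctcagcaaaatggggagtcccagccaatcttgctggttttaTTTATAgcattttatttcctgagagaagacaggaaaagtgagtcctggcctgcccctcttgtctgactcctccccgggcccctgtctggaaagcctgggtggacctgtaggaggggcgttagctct
The E-box was in 0 of the 6 windows and in 6.02% of the 32851 promoter windows of this length. The RUNX and AP-1 motifs were also in 0 of the 6, against 14% and 6.75% of all windows. The TATA box motif was found in *Postn* at position -26, near where such a box usually lies, and in *Tnc* and *Thbs2* at position -126, in the last on the opposite strand (12.4% of all windows). The GC box was in *Tnc*, *Thbs3* and *Tgfbi* (32.7%) and the TEAD motif in *Tnn* (12.6%). *Tnc*, which did not fall with *c-Myc*, and *Tgfbi*, which fell the most, both had the GC box. These are matches of letters in a short window, and a window without a match may lie next to one.

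Thrombospondins bind calcium and CD47, CD36 or integrins. *Thbs1* and *Thbs2* form trimers that restrain new vessels, and thrombospondin-1 can release active TGF-β from its latent complex, which thrombospondin-2 cannot. *Thbs3* belongs to the pentameric branch expressed in cartilage and bone.

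*Thbs1* (ENSMUSG00000040152, chromosome 2, 118111876 to 118127133, plus strand) stood at 404, 513, 558 and 533 CPM in juvenile and 1117, 698, 906 and 856 CPM in adult osteoblasts, without overlap. It was lower in juvenile osteoblasts by age (log2 fold change -0.84, SE 0.15, edgeR adjusted p = 0.00488), and it passed the test in all 8 fits that left out a library. It was at 90.4 and 115 CPM with *c-Myc* and 43.8 and 50.4 CPM with *c-Myc* + *R172H*. *Thbs1* fell by 2.31 with *c-Myc* (SE 0.15, adjusted p = 1.19e-07), or 4.96-fold, and by 3.40 with *c-Myc* + *R172H* (SE 0.16, adjusted p = 7.88e-09). The step between the induced groups passed the test at -1.09 (SE 0.16, adjusted p = 0.0103). The call was lost without *c-Myc* replicate 2 (-0.94, adjusted p = 0.123), *c-Myc* + *R172H* replicate 1 (-1.02, 0.145) or *c-Myc* + *R172H* replicate 2 (-1.23, 0.0592).

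*Thbs2* (ENSMUSG00000023885, chromosome 17, 14665500 to 14694235, minus strand) went the other way by age. Juvenile libraries held 146, 157, 123 and 179 CPM and adult libraries 69.7, 112, 82.9 and 77.0 CPM, without overlap, a log2 fold change of 0.82 (SE 0.15, edgeR adjusted p = 0.00617). The ratio of *Thbs1* to *Thbs2* per kb was 3.19 to 5.25 in the juvenile libraries, 7.16 to 18.5 in the adult libraries and 5.93 to 7.41 in the induced libraries, so neither control group overlapped the other. With *c-Myc* it was at 17.6 and 17.9 CPM and with *c-Myc* + *R172H* at 8.28 and 9.28 CPM. *Thbs2* fell by 3.12 with *c-Myc* (SE 0.16, adjusted p = 2.44e-08), or 8.67-fold, and by 4.10 with *c-Myc* + *R172H* (SE 0.17, adjusted p = 4.32e-09). Between the induced groups it was lower by -0.98 on the log2 scale (SE 0.17, adjusted p = 0.0301), a call lost without juvenile replicate 1 (0.0661), juvenile replicate 2 (0.101) or any of the 4 induced libraries (adjusted p from 0.0865 to 0.316).

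*Thbs3* (ENSMUSG00000028047, chromosome 3, 89215180 to 89226837, plus strand) had the shallowest fall among the 8 that passed with *c-Myc*. It was at 62.5, 55.9, 52.6 and 30.3 CPM in juvenile, 219, 60.2, 99.6 and 167 in adult, 24.1 and 22.8 with *c-Myc* and 23.0 and 23.8 with *c-Myc* + *R172H*. The adult libraries spread widely, with replicate 2 inside the juvenile range, and the 4 induced libraries were nearly equal. The log2 fold change was -1.13 with *c-Myc* (SE 0.23, edgeR adjusted p = 0.00124), -1.10 with *c-Myc* + *R172H* (SE 0.23, adjusted p = 0.00133) and 0.03 between the induced groups (interval -0.53 to 0.58). With library totals the first 2 were -0.31 (adjusted p = 0.349) and -0.08 (0.81), with all 12 libraries in the fit their adjusted p was 0.0885 and 0.0833, and without juvenile replicate 1 the second was -0.98, short of the required size. By age it was -1.45 (SE 0.44, edgeR adjusted p = 0.12). Of the 8 fits that left out a library it passed in 1, that without adult replicate 2 (-1.69, 0.0141), the adult library inside the juvenile range. *Thbs3* shares 318 of its 4823 exonic bases with *Mtx1* on the opposite strand, which rose from 10.5 CPM on average in juvenile osteoblasts to 25.7 CPM with *c-Myc*. Whether the counting used strand is not stated, so how reads in the shared bases were counted is not known. Opposite-strand genes that share exonic bases with *Fn1*, *Tnc* and *Thbs1* (*Apol7d*, *8030451A03Rik* and *Gm29233*) had at most 2.10 CPM in any library.

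SMOC proteins are calcium-binding relatives of osteonectin that modulate BMP signalling. *Smoc2* (ENSMUSG00000023886, chromosome 17, 14279506 to 14404790, plus strand) lies 260709 bases from *Thbs2* with 0 coding genes between them. It was at 87.6, 100.2, 105 and 80.6 CPM in juvenile, 80.4, 132, 130 and 102 in adult, 5.62 and 8.79 with *c-Myc* and 2.61 and 3.77 with *c-Myc* + *R172H*. Control groups overlapped and the induced libraries lay far below both. *Smoc2* fell by 3.73 with *c-Myc* (SE 0.22, edgeR adjusted p = 5.52e-08), or 13.2-fold, and by 4.86 with *c-Myc* + *R172H* (SE 0.24, adjusted p = 1.01e-08). The step between the induced groups was -1.14 (interval -1.69 to -0.59, edgeR adjusted p = 0.0917). It ran from -1.46 to -0.81 over the 8 fits that left out a library.

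*Smoc1* (ENSMUSG00000021136, chromosome 12, 81026808 to 81186414, plus strand) was the least abundant of the 10 in juvenile and adult osteoblasts. In both induced groups *Tgfbi* had the lowest mean. The levels of *Smoc1* were 5.94, 7.02, 7.09 and 3.73 CPM in juvenile, 13.2, 13.8, 6.99 and 9.81 in adult, 2.33 and 3.74 with *c-Myc* and 1.65 and 2.48 with *c-Myc* + *R172H*. Groups next to each other in level overlapped. With *c-Myc* the log2 fold change was -0.99 (SE 0.41, edgeR adjusted p = 0.0554) and did not pass. Of the 8 fits that left out a library it passed in 1, that without juvenile replicate 4 (-1.17, 0.0143). With *c-Myc* + *R172H* it passed at -1.52 (SE 0.42, adjusted p = 0.0081), a call lost without *c-Myc* + *R172H* replicate 1 (-1.27, 0.104) and with library totals (-0.49, 0.323). By age it was -0.89 (SE 0.30, adjusted p = 0.0919). The ratio of *Smoc2* to *Smoc1* per kb, 7.18 to 10.9 in juvenile and 3.07 to 9.32 in adult osteoblasts, was 1.21 and 1.18 with *c-Myc* and 0.796 and 0.765 with *c-Myc* + *R172H*.

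Some of the 10 followed the chondrocyte markers in part. In the adult libraries the summed chondrocyte markers were 138339, 43810, 65579 and 85901 CPM, so replicate 1 was highest, replicate 4 next and replicate 2 lowest. *Thbs3* had that same order and *Thbs2*, *Postn* and *Smoc2* its reverse, while *Tgfbi*, *Fn1* and *Thbs1* were lowest in replicate 2. In juvenile osteoblasts replicate 4 had the lowest sum (18618 CPM). It had the lowest *Tgfbi*, *Thbs3*, *Fn1*, *Smoc1* and *Smoc2*, and the highest *Thbs2*, *Postn* and *Tnn*. *Thbs1* was lowest in juvenile replicate 1, and *Smoc2* thus went with the sum there and against it in adult osteoblasts. Of the 15 markers 14 had a negative log2 fold change by age, with a median of -1.89, and 2 passed the test. *Col2a1*, the main cartilage collagen, averaged 15595 CPM in juvenile and 58755 CPM in adult osteoblasts. *Col11a2*, the other large part of the sum, averaged 9092 and 10606 CPM (log2 fold change -0.23, edgeR adjusted p = 0.529).

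With only adult replicates 2 and 3 kept, the adult libraries with the lower sums, a setting chosen after seeing the data, the log2 fold change by age was -0.67 for *Thbs3* and -0.82 for *Tgfbi*, in place of -1.45 and -1.42. The adult libraries left out, replicates 1 and 4, held the highest adult *Thbs3* (219 and 167 CPM) and *Tgfbi* (141 and 163 CPM). The smaller changes of these genes therefore followed from the choice of libraries. *Thbs1* still passed as lower (-0.68, SE 0.13, edgeR adjusted p = 0.0114), whereas *Fn1* (-0.48, adjusted p = 0.0524) and *Thbs2* (0.63, adjusted p = 0.0558) did not. With *c-Myc* all 15 chondrocyte markers fell, with a median of -5.73, and *Col2a1* averaged 360 CPM. As deviations of log2 CPM from the group means over the 12 libraries, *Thbs2* and *Tgfbi* had a Pearson r of -0.93, *Thbs2* and *Thbs3* -0.84 and *Thbs3* and *Tgfbi* 0.87. These are the 3 largest in size of 45 pairs, picked for that, where the median size of r was 0.408, and all pairs share libraries and scaling. The part of cartilage cells in these differences was not tested.

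**Figure D4:**
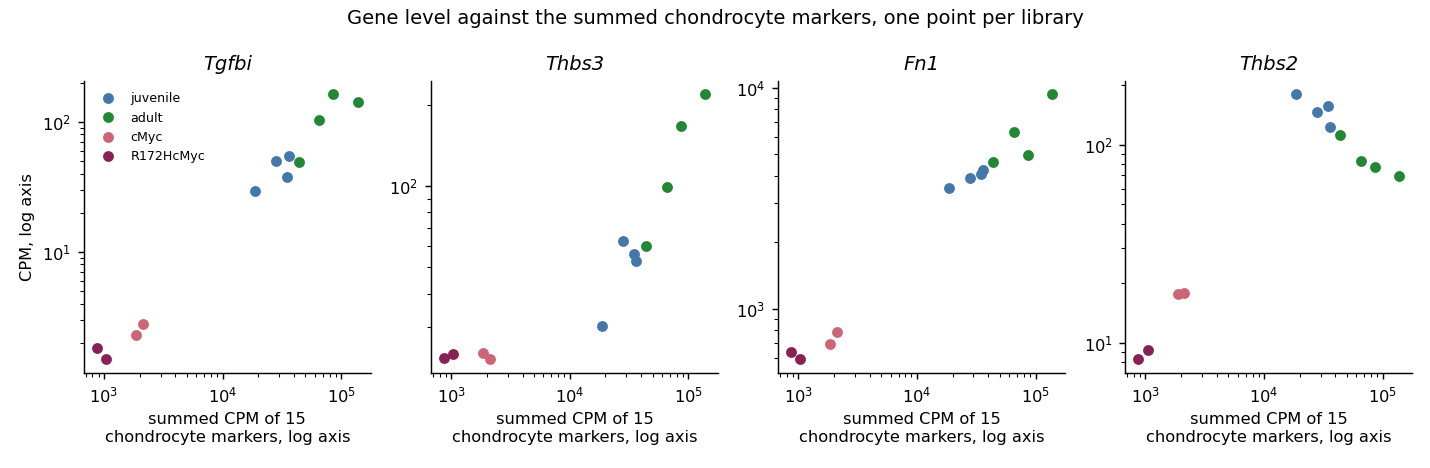
The level of *Tgfbi*, *Thbs3*, *Fn1* and *Thbs2* (CPM, log axis) against the summed CPM of 15 chondrocyte markers (log axis), with 1 point per library. *Col2a1* and *Col11a2* made up most of that sum in every group. Among the 8 control libraries juvenile replicate 4, with the lowest marker sum, has the lowest *Tgfbi*, *Thbs3* and *Fn1* and the highest *Thbs2*, while libraries in between do not keep 1 order, and the 4 induced libraries lie at 873 to 2115 CPM of the markers.

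Of 24 other matricellular genes 18 were tested. By age 1 was higher in juvenile osteoblasts, *Spp1* (log2 fold change 1.23, SE 0.16, edgeR adjusted p = 0.000662), which encodes the bone phosphoprotein osteopontin. Another 6 were lower (3.23% of all genes), led by the elastic-fibre protein *Fbln2* (-3.77), *Spon2* (-2.72) and *Thbs4* (-2.39). With *c-Myc* 14 fell (16% of all genes). Among those whose groups did not overlap, the cartilage thrombospondin *Comp* (-5.40), *Fbln7* (-4.25) and *Ccn6* (-4.15) fell the most. *Ccn6* had 6 to 24 counts in the juvenile libraries and 1 to 2 with *c-Myc*. *Spock1* had a larger fall (-8.11), but its groups overlapped, with 0 to 44 counts in the juvenile libraries. One rose, the F-spondin gene *Spon1* (1.57, SE 0.11, adjusted p = 1.9e-07), from 16.2 CPM on average in juvenile osteoblasts to 48.8 CPM. Adult osteoblasts averaged 44.0 CPM of *Spon1*, which by age was lower in juvenile osteoblasts (-1.45, edgeR adjusted p = 0.000404). With *R172H* added *Spon1* rose further (0.79, SE 0.12, adjusted p = 0.0149) and *Sparc*, osteonectin, fell (-0.87, SE 0.14, adjusted p = 0.0204). *Spon1* was thus the 1 gene of the 12588 tested that passed as higher there. The medians of this list were -0.83 by age, -2.14 with *c-Myc* and -0.43 with *R172H* added. Against juvenile osteoblasts *c-Myc* + *R172H* gave 15 lower and 1 higher (17.9% and 19.6% of all genes), with *Comp* at -7.05, *Fbln7* at -5.93, *Ccn6* at -4.68 and *Spon1* at 2.36.

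Most of the receptors of these proteins were also lower with *c-Myc*. Of 18 listed 16 were tested, and 11 were lower with *c-Myc* and 1 higher (16% and 18.4% of all genes), with a median of -1.47. The largest falls that passed were those of the integrin subunits *Itga8* (-3.59, SE 1.21) and *Itgb8* (-1.83) and of the thrombospondin uptake receptor *Lrp1* (-2.41, SE 0.13, edgeR adjusted p = 2.97e-08). *Itga8* was low throughout, at 1.26 CPM on average in juvenile osteoblasts, 0.097 CPM with *c-Myc* and 0.074 CPM with *c-Myc* + *R172H*. No induced library had more than 3 counts of *Itga8*, a number taken here as not detected. *Itga4*, an integrin subunit that binds fibronectin and is typical of blood cells, rose by 4.72 (SE 0.33, adjusted p = 2e-07) from 0.81 to 21.9 CPM on average, while the 10 blood markers summed to at most 7.31 CPM with *c-Myc*. The macrophage gene *Lyz2*, the 1 blood marker that was tested, rose as well, from 0.34 to 6.16 CPM on average (4.23, SE 0.74, adjusted p = 0.00038), and its part in the *Itga4* difference was not tested. *Lrp1* and *Itga8* were also lowest with *c-Myc* + *R172H* (-3.05 and -3.97), followed by *Itga9* (-2.42), among 10 lower and 1 higher, *Itga4* (4.81). With *R172H* added 0 of the 16 passed by edgeR's test, 4 had an unadjusted p below 0.05, all lower, and 1 passed with DESeq2; the median was -0.16. By age the heparan sulphate proteoglycans *Sdc4* (-1.50) and *Sdc3* (-0.53) were lower in juvenile osteoblasts.

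All 12 genes of the TGF-β pathway were tested. With *c-Myc* 5 fell (16% of all genes), led by the receptor *Tgfbr3* (-1.94, SE 0.27, edgeR adjusted p = 5.66e-05), the ligand *Tgfb2* (-1.50) and the receptor *Tgfbr2* (-1.46), and the median of the list was -0.81. With *c-Myc* + *R172H* 5 were lower (17.9%), led by *Tgfbr3* (-1.99), *Tgfb3* (-1.97) and *Tgfbr2* (-1.56). With *R172H* added 0 passed by edgeR's test and 0 with DESeq2, and 2 had an unadjusted p below 0.05. By age *Smad3* (0.56, SE 0.14, adjusted p = 0.0264) and *Tgfb1* (0.55) were higher in juvenile osteoblasts and *Tgfb2* (-0.83) and *Tgfbr2* (-0.53) lower.

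The induced libraries differed by *Xist*, with replicate 1 of each induced group low, like the juvenile libraries, and replicate 2 high. With both of these replicate 2 libraries left out, a setting chosen after seeing the data, *Fn1* was at -2.53, *Thbs2* at -3.13, *Tgfbi* at -4.25 and *Tnc* at 0.04 with *c-Myc*. With *c-Myc* + *R172H* *Fn1* was at -2.65, *Thbs2* at -4.22, *Tgfbi* at -4.57, *Smoc1* at -1.87 and *Tnc* at 0.06. This leaves 1 library in each induced group, which is assumed to vary like the juvenile libraries. For *R172H* added to *c-Myc* it sets 1 library against 1, and *Thbs1* at -1.05 and *Thbs2* at -1.09 were close to the -1.09 and -0.98 of all libraries, although neither passed (adjusted p = 0.253 and 0.459). With replicate number as a term in the fit of the 8 juvenile and induced libraries, a number that in the induced groups separates the same libraries as *Xist*, *Postn* (-1.07, edgeR adjusted p = 2.42e-05), *Tnn* (-0.71, 0.00209) and *Smoc2* (-1.13, 0.00164) passed as lower with *R172H* added, beside *Thbs1* and *Thbs2*.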

How the data were processed

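RNA-seq libraries of sorted mGFP+ metaphyseal cells were made with a strand-specific kit. The authors used cutadapt 4.6 for trimming, STAR 2.7.11a for alignment to mm10 and HTSeq 2.0.5 for counting, and they deposited raw counts with no normalization. The GENCODE releases named for alignment and counting differ, and no strand setting is given for the counting.

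Differences were tested with edgeR 4.0.16 in R 4.3.3, using TMM factors, filterByExpr, robust quasi-likelihood F tests and Benjamini-Hochberg adjustment over all genes tested. Age was tested on the 8 juvenile and adult libraries, and the other 3 comparisons in 1 fit that held the 8 juvenile and induced libraries. SE was approximated from the fold change and the F statistic, and the 95% intervals follow from it. Levels used TMM factors over all 12 libraries, so they can differ slightly from the fits. Up to 3 counts were taken as not detected. Libraries were grouped by title. The scripts were tested on simulated data. All 14 pairs of replicates differed by more than sampling noise (chi-square per degree of freedom 5.45 to 136). Alternatives were other scalings, filters and sets of libraries, DESeq2 1.42.0, a replicate block and each library left out.

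Coordinates and exon lengths are from GENCODE on GRCm38. The 10 genes and all lists were chosen with earlier results of these data known. From each list of related genes, up to 3 calls in each direction are named, those of the largest size whose groups did not overlap.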

Additional observations from a re-analysis of the deposited data

How the results depend on the processing

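With 2 libraries in each induced group, the steps between them rest on few samples, and most counts that changed belong to that comparison or to age. The number of the 10 genes called lower by age, 2 as reported, was 4 with library totals, 5 with DESeq2, 4 with all 12 libraries in the fit, 1 with only adult replicates 2 and 3 and 1 to 4 with each library left out. The 5 with DESeq2 were *Fn1*, *Tgfbi*, *Tnc*, *Thbs1* and *Thbs3*. The number called higher, 1, was 0 with only adult replicates 2 and 3. All genes called by age, 581, became 977 with no filter, 923 with DESeq2, 1094 with all 12 libraries, 222 with only adult replicates 2 and 3 and 284 to 885 with each library left out. For *R172H* added to *c-Myc* the genes called lower, 2 of the 10, were 0 with library totals, 5 with no filter, 4 with DESeq2, 1 with all 12 libraries, 6 with only the groups compared, 0 with only libraries with little *Xist* and 0 to 3 with each library left out. The 4 with DESeq2 were *Postn*, *Smoc2*, *Thbs1* and *Thbs2*. All genes called there, 59, became 12, 222, 182, 22, 629 and 3 under the same settings and 8 to 87 with each library left out. With *c-Myc* the 10 genes kept 7 to 9 lower and 0 higher in all 19 other fits. For *c-Myc* + *R172H* 7 to 9 were lower, and library totals gave 1 higher, *Tnc*, and 7132 genes in all in place of 4724.

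Library totals moved the median of all genes to -0.24 by age, 0.87 with *c-Myc*, 0.21 with *R172H* added and 1.12 with *c-Myc* + *R172H*. They also moved the split of all calls from 214 higher and 367 lower to 53 and 793 by age, from 2320 and 2010 to 5234 and 700 with *c-Myc*, and from 2466 and 2258 to 6264 and 868 with *c-Myc* + *R172H*.

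Replicate numbers come from the titles. Correlations between same-numbered libraries of different groups ran from -0.13 to 0.11, except 0.27 for both pairs of the induced groups, which are the same value by construction with 2 libraries each, so the numbers were not taken to pair samples, although in the induced groups they separate the libraries with much and little *Xist*. With the replicate block 1 of the 10 genes was lower by age (*Thbs1*), and 5 of the 10 (*Postn*, *Tnn* and *Smoc2* beside *Thbs1* and *Thbs2*) and 326 of all genes were called with *R172H* added. With the block and only the groups compared these were 6 and 972.

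Reversed signs were those of values near 0. *Postn* by age was -0.21 with library totals, -0.11 with only adult replicates 2 and 3 and -0.12 to 0.17 with a library left out. *Tnc* with *c-Myc* was 0.82 with library totals, 0.0056 without *Col1a1*, *Col1a2* and *Gm26917*, 0.053 with no filter, 0.0072 with at least 10 counts in every library, 0.021 with all 12 libraries, 0.036 with little *Xist* and -0.15 to 0.13 with a library left out. *Tnc* with *R172H* added was -0.014 with RLE factors, -0.013 with DESeq2, -0.020 with all 12 libraries and -0.11 to 0.066 with a library left out. *Thbs3* there was -0.0038 with all 12 libraries, -0.071 with little *Xist* and -0.039 to 0.037 with a library left out. *Tnc* with *c-Myc* + *R172H* was -0.025 with RLE factors, -0.056 with upper-quartile factors, -0.022 with DESeq2, -0.15 with the replicate block, -0.038 with only the groups compared and -0.14 to 0.14 with a library left out. The cause of these changes was not tested.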
